A study of Mus musculus with 19 samples.

Results

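Fibroblasts of the body surface, grown from skin and tail, were set against fibroblasts of 4 internal organs, gonad, heart, liver and lung, on 16 of the 19 samples of the series. The contrast is the mean of the skin and tail organ means less the mean of the gonad, heart, liver and lung organ means, so that each organ counts once on its side whatever its number of arrays. The surface side held 5 arrays, 2 of skin and 3 of tail, and the internal side held 11, with 3 each of gonad, heart and liver and 2 of lung. The 2 kidney samples were left out by the rule, because both their arrays have a raised background, and lung replicate 2 was left out because it has a value only in a table on another scale.

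All 6 groups came from mice aged 8 to 10 weeks, and the labels used here give no strain, genotype or sex. Pieces of tissue were loosened with 0.05% trypsin or 0.5 mg/mL collagenase for 40 min at 37 °C. The labels do not say which enzyme served which organ. The cells that attached were then grown for 5 days in medium with 10% serum, so every sample is a short culture of mixed attached cells and not a sorted population. From each, 0.1 µg of total RNA was labelled with Cy3 and read on a 1-colour Agilent array, 1 sample per array. Nothing in the labels ties a replicate to an animal of its own. The p-values below therefore measure only how these samples spread, which may be technical.

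Fibroblasts make the collagen-rich matrix of connective tissue, and those of different body sites descend from different embryonic sources. Skin and tail dermis and fascia derive from the body wall, from somites and from lateral plate mesoderm, whereas the stroma of the viscera comes largely from splanchnic mesoderm and from the mesothelium that lines the body cavities. Transcription factors laid down in the embryo, among them the Hox, Iroquois, T-box and GATA families, are known to stay on in adult fibroblasts and to mark where in the body a cell came from.

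Values below are log2 of the background-subtracted spot signal less the 75th percentile of its array, so that 0 is that percentile. Levels are compared between samples for 1 gene and never between genes. A difference is given in log2 ± SE from limma, and a gene was called with a Benjamini-Hochberg adjusted p under 0.05 over all 19726 genes tested and a log2 difference of at least 1. Where every array of at least 1 organ on the lower side was not well above background, the difference is also given as a lower bound on the fold, computed against the dimmest signals that those arrays could still measure. Single dim arrays of other organs entered at their own signal, so the true bound can be smaller. Where no organ was dim on all its arrays no bound is given, even if some arrays were dim.

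Markers of fibroblasts were measured on both sides. All 20 genes of a fibroblast list, such as Col1a1, Vim, Pdgfra, Thy1 and Dcn, were well above background on all 16 arrays, and 0 of 20 were called. Col1a1, a chain of the main fibrillar collagen, differed by 0.11 ± 0.31 and Vim, the intermediate filament of mesenchymal cells, by 0.15 ± 0.35. The median shift of the list was -0.04 relative to all genes, and its sign turned under normexp with quantile normalization, under quantile normalization alone, with the value table and, at 0.12, on 13 arrays with normexp and quantile normalization. The surface and internal arrays did differ in how much of the array was lit. Between 69.2% and 84.9% of spots were well above background on the 5 surface arrays, against 51.2% to 69.3% on 9 of the internal arrays, while gonad 3 and heart 1, whose dark control spots read out of range, stood at 90.8% and 95.5%. Tail 2 had such control spots as well, and these 3 arrays are called the high-background arrays below. By correlation over all genes, 13 of 16 arrays lay nearest to an array of their own organ and 15 to one of their own side. Gonad 3 lay nearest to skin 1, heart 1 to gonad 3 and liver 3 to lung 1.

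Surface fibroblasts had 4 of 7 genes of an Iroquois list and 9 of 31 regulators of dermal, limb and body wall mesenchyme called higher. Of 23 chemokines and cytokines 7 were called higher and 1 lower. Of 32 regulators of visceral and splanchnic mesenchyme 8 were called lower, Gata4, Gata6 and Wt1 among them, and 2 higher. Aldh1a1, Aldh1a2 and 11 of 13 mesothelial markers were called lower as well. Of the 19726 genes, 785 were called (3.98%), 396 higher (2.01%) and 389 lower (1.97%) in the surface cells. The median difference of all genes was 0.28, so the typical gene read slightly higher on the surface arrays. The split between higher and lower, 50.4% of calls higher, moved with the scaling and with the high-background arrays. It was 37.0% under quantile normalization and 39.8% when arrays were scaled to the 75th percentile of detected probes. It rose to 88.1% without the 3 high-background arrays, where 5798 genes were called (5107 higher and 691 lower), to 86.2% with their membership as a term and to 88.5% with array weights. With kidney as a further internal organ it was 61.9%. Without the 3 arrays 772 of the 785 genes were still called in the same direction, and with the share of lit spots as a term 1468 genes were called, 760 of the 785 among them. The part of array background in the extra higher calls was not tested. Leaving out single arrays gave 1568 genes without heart 1, 1230 without gonad 3, 450 without skin 1 and 395 without skin 2.

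**Figure D1:**
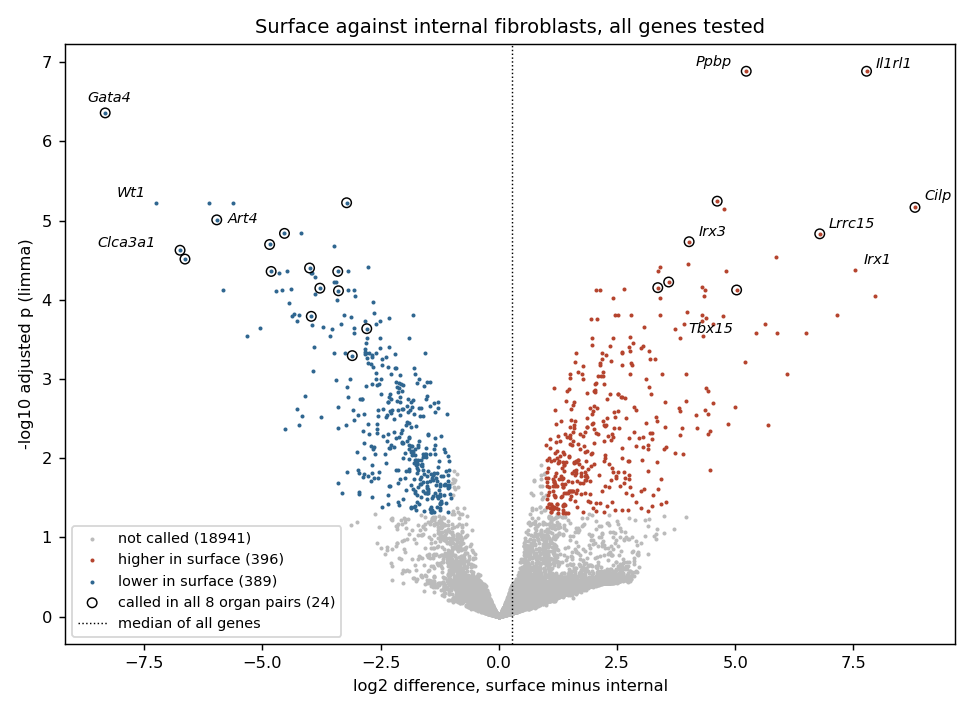
Difference between surface and internal fibroblasts (x axis, log2) against -log10 of the limma adjusted p (y axis) for 19726 genes. Red points are the 396 genes called higher in the surface cells, blue points the 389 called lower, and the circles mark the 24 genes called in all 8 organ pairs, among them Cilp and Il1rl1 at the right and Gata4 at the left. The dotted line is the median of all genes at 0.28.

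Only 24 genes (0.122% of those tested) passed in every 1 of the 8 pairs of a surface organ with an internal organ, 9 of them higher (0.0456%) and 15 lower (0.0760%) in the surface cells. The higher ones were Cilp, Il1rl1, Lrrc15, Ppbp, Crabp1, Gpr1, Irx3, Csgalnact1 and Col5a3. The lower ones included Gata4, Clca3a1, Clca3a2, Art4, Ptprb, Col4a6, Colec11, Smtnl2, Serpini1, Nxnl2, Plekha7, Fry, Pcdh9 and Ephx2. The number rests on single arrays. It was 79 without heart 1, 2 without skin 2, 3 without lung 3, 5 without skin 1, 8 without lung 1, 14 without tail 1, 15 without tail 3 and 17 to 27 without any other array. Gene counts per pair ran from 234 for skin against lung to 1105 for tail against gonad.

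Promoter sequence was looked up for these 24 genes in a RefSeq promoter table (mouse build GRCm38.p6), which held 18 of them, 8 higher and 10 lower. Each entry runs from 250 bases before the annotated start to 50 after it. The promoters of Cilp and Il1rl1, the strongest higher genes, and of Clca3a1, the strongest lower gene with an entry, are shown with that of Irx3, the Iroquois gene of the set, to let the reader see the regions from which these genes are transcribed. Capitals mark matches, on either strand, to 4 short motifs. They are AGATAA, a core bound by Gata factors, then GGGCGG, known as the GC box, then TATAAA, the core of the TATA box, and CAGCTG, an E-box form. No 2 of these motifs overlap each other in the promoters shown. Cilp lies at chr9:65264930-65265229, plus strand. Il1rl1 lies at chr1:40429320-40429619, plus strand. Irx3 lies at chr8:91801605-91801904, minus strand. Clca3a1 lies at chr3:144760928-144761227, minus strand.
Cilp: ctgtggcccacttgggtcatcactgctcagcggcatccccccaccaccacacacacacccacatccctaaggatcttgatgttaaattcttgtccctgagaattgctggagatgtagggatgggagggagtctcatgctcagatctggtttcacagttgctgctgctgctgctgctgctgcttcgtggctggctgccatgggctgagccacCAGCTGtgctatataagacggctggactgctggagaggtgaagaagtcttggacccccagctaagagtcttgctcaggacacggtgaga
Il1rl1: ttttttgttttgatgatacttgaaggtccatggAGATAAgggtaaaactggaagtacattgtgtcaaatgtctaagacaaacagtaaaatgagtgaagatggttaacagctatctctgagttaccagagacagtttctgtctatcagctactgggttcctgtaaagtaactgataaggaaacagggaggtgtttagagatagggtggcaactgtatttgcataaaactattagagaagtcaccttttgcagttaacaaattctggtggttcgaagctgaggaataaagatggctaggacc
Irx3: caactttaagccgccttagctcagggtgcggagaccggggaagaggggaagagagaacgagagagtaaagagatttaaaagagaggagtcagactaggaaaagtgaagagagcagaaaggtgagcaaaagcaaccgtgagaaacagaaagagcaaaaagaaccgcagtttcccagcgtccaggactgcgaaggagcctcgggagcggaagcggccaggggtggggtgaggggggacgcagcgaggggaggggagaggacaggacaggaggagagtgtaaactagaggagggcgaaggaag
Clca3a1: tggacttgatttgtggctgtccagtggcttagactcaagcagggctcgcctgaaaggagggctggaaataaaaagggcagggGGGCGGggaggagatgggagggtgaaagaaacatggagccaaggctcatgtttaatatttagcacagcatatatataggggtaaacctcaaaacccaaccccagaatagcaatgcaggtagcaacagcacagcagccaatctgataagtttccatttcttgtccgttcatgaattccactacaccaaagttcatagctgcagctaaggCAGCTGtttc

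The Cilp promoter held 1 E-box, that of Il1rl1 held 1 Gata motif, and that of Irx3 held none of the 4. Clca3a1 had a GC box and an E-box. Over the 18 promoters, the Gata motif was found in 1 of 8 higher and 3 of 10 lower genes, against 11.4% of 27025 promoters. These 27025 were the first entry of each gene, with chromosome 18 left out. The GC box was in 3 of 8 and 5 of 10, against 35.9%, and the E-box in 3 of 8 and 4 of 10, against 16.1%. The TATA box was in 2 of 8 and 0 of 10, against 14.2%. These are letter matches only, over few promoters.

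The Iroquois genes, homeobox factors that pattern the limb, skin and heart in the embryo, stood highest in the surface cells. The list of 7 held Irx1 to Irx6 and Mkx, a homeobox gene that is not an Irx gene. Of these 4 were called higher, Irx1, Irx2, Irx3 and Irx5, and 0 lower. The list median was 3.59 above that of all genes, and 1.56 above it under normexp with quantile normalization. Irx1 read 5.28 and 5.79 in skin and 2.09, 2.43 and 2.96 in tail. It read -6.08, -7.16 and -2.59 in gonad, -5.12, -4.35 and -3.48 in heart, -3.02, -2.18 and -4.39 in liver and -1.51 and -1.06 in lung. All 5 surface arrays lay above all 11 internal arrays, with skin above tail and lung the highest internal organ. The difference was 7.53 ± 0.64 (limma, adjusted p = 4.1e-05), and it was 7.43, 8.54 and 5.71 on the 3 slides taken apart. On gonad 1, gonad 2 and heart 1 Irx1 lay below the lowest signal well above background on those arrays, so its size is uncertain. Irx3 was the evenest of the family, reading 0.38 and 1.18 in skin and 0.62, 1.03 and 1.60 in tail and from -5.15 to -2.05 in the 11 internal arrays (median -2.84). Its difference of 4.03 ± 0.31 (limma, adjusted p = 1.8e-05) held in all 8 organ pairs, and skin and tail differed by -0.30 ± 0.51 (limma, adjusted p = 1). Irx2 differed by 6.49 ± 0.75 (limma, adjusted p = 2.6e-04), with both skin arrays above the 3 tail arrays. Irx5 differed by 3.88 ± 0.66 (limma, adjusted p = 0.0042) and was called in 3 of the 8 pairs. Of the other members, Irx4 differed by 1.80 ± 0.92 and Irx6 by 1.21 ± 0.48, and neither passed the test. Mkx was not called either.

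**Figure D2:**
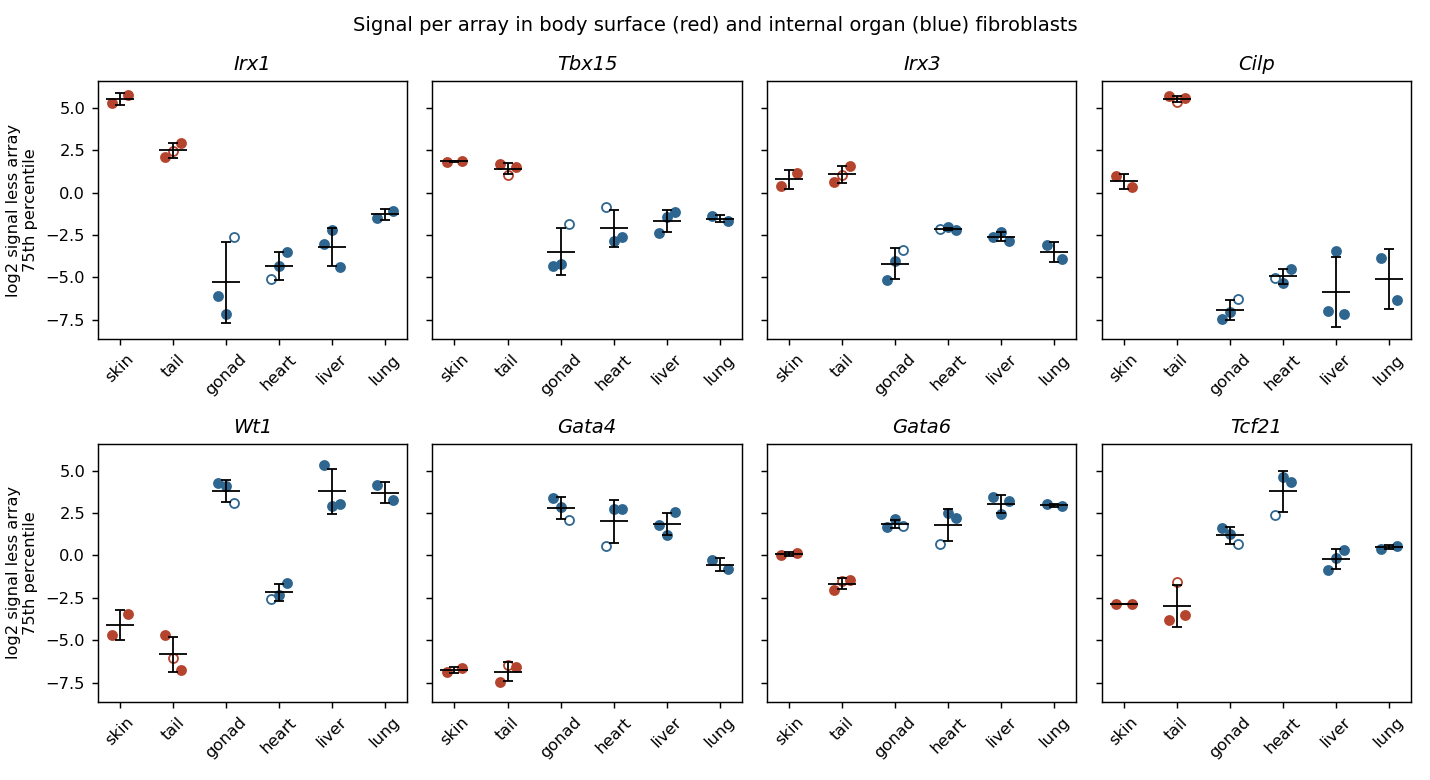
Signal on each array (points, log2 less the array's 75th percentile) for 4 genes higher and 4 genes lower in surface fibroblasts, by organ. Red is surface and blue internal, open circles are the high-background arrays gonad 3, heart 1 and tail 2, and black marks are organ means with SD (n = 2 or 3). In each panel all 5 surface arrays lie on one side of all 11 internal arrays, and Wt1 sits lower in heart, at -2.18, than in the other internal organs.

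Regulators of dermal, limb and body wall mesenchyme were called higher in 9 of 31 cases and lower in 0, with a median 0.89 above that of all genes. A median of this size was not particular to the list. Lung epithelial, hepatocyte and stellate cell, and cardiomyocyte markers had medians of 0.90, 0.90 and 0.75. Under normexp with quantile normalization those 3 were -0.07, 0.02 and -0.03, and the dermal median was 0.42. Tbx15, a T-box factor of the dermis and limb skeleton, read 1.82 and 1.88 in skin and 1.67, 1.07 and 1.53 in tail and from -4.33 to -0.86 in the 11 internal arrays (median -1.88). The 2 sides did not overlap, the nearest internal array being heart 1. The difference was 3.83 ± 0.45 (limma, adjusted p = 3.1e-04), called in 6 of 8 pairs, and the 3 slides gave 4.48, 3.45 and 3.51. Skin and tail differed in Tbx15 by 0.43 ± 0.75, which did not pass the test. Twist1, a factor of mesenchymal identity, also had all 5 surface arrays above the 11 internal ones, with a smaller difference of 1.58 ± 0.24 (limma, adjusted p = 0.0021).

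Several of these regulators were led by tail. Zic1, a zinc-finger factor of the dorsal neural tube and somites, had a mean of 2.70 ± 0.15 in tail (SD, n = 3) against -2.73 ± 0.24 in skin (SD, n = 2), and organ means from -6.24 in gonad to -3.41 in heart. Its surface difference was 4.52 ± 0.69 (limma, adjusted p = 0.002), and skin lay below tail by a difference of -5.43 ± 1.15 (limma, adjusted p = 0.023). Pax1, a factor of the sclerotome from which vertebrae form, stood highest in tail at -0.34 ± 0.41, while skin at -3.48 ± 0.64 lay below lung at -2.83 ± 0.29 and above the other internal means. Its surface difference was 3.35 ± 0.55, at least 7.76-fold (limma, adjusted p = 0.0034), while its skin and tail difference did not pass (adjusted p = 0.1, limma). Prrx2, Msx2 and Twist2 were also among the 9, at 2.01, 1.96 and 1.64. The calls of Zic1, Pax1, Twist1, Prrx2 and Msx2 ended without tail. Without skin 2 those of Prrx2 and Twist2 ended, and without skin 1 that of Prrx2.

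Among Hox genes the surface cells read higher toward the posterior end of the clusters. Of groups 1 to 4, the anterior genes, 1 of 11 was called lower and 0 higher, of groups 5 to 8 2 of 11 were called higher, and of groups 9 to 13, the posterior genes, 7 of 15 were called higher, and 0 lower in either of these. The medians relative to all genes were -0.51, 1.03 and 2.34, and -0.38, 0.47 and 1.49 under normexp with quantile normalization. Hoxb13, the most posterior gene of its cluster, read -3.45 and -3.72 in skin and 5.88, 5.70 and 6.17 in tail and from -7.78 to -2.33 in the 11 internal arrays (median -6.50). The 3 tail arrays stood far above the rest, and both skin arrays lay below heart 1 and gonad 3, so the 2 sides overlapped. Its difference was 7.16 ± 0.76, at least 84.4-fold (limma, adjusted p = 1.5e-04), and the call ended without tail. Hoxc13, which acts in hair and nail, had the same shape, with 2.70 ± 0.15 in tail and -0.40 ± 0.38 in skin, where gonad had -0.28 ± 0.29. Hoxc9 and Hoxb9 went the other way, highest in skin at 3.75 ± 0.28 and 2.67 ± 0.12 against 0.32 ± 0.10 and 1.17 ± 0.82 in tail. For neither gene did the skin and tail difference pass the test. No Hox gene had all 5 surface arrays beyond all 11 internal arrays. Hoxc6, for example, had means of 3.85 ± 0.25 in gonad and 4.31 ± 0.17 in skin. Of the 37 Hox genes measured, 21 differed among the 4 internal organs in the F test, where 4.93% of all genes did. Hoxa3, an anterior gene, was the 1 called lower (-1.68 ± 0.23, limma adjusted p = 0.001). Heart, at -3.82 ± 0.50, lay below both surface organs in Hoxa3, so the direction is that of the mean of the internal organs and not of each.

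**Figure D3:**
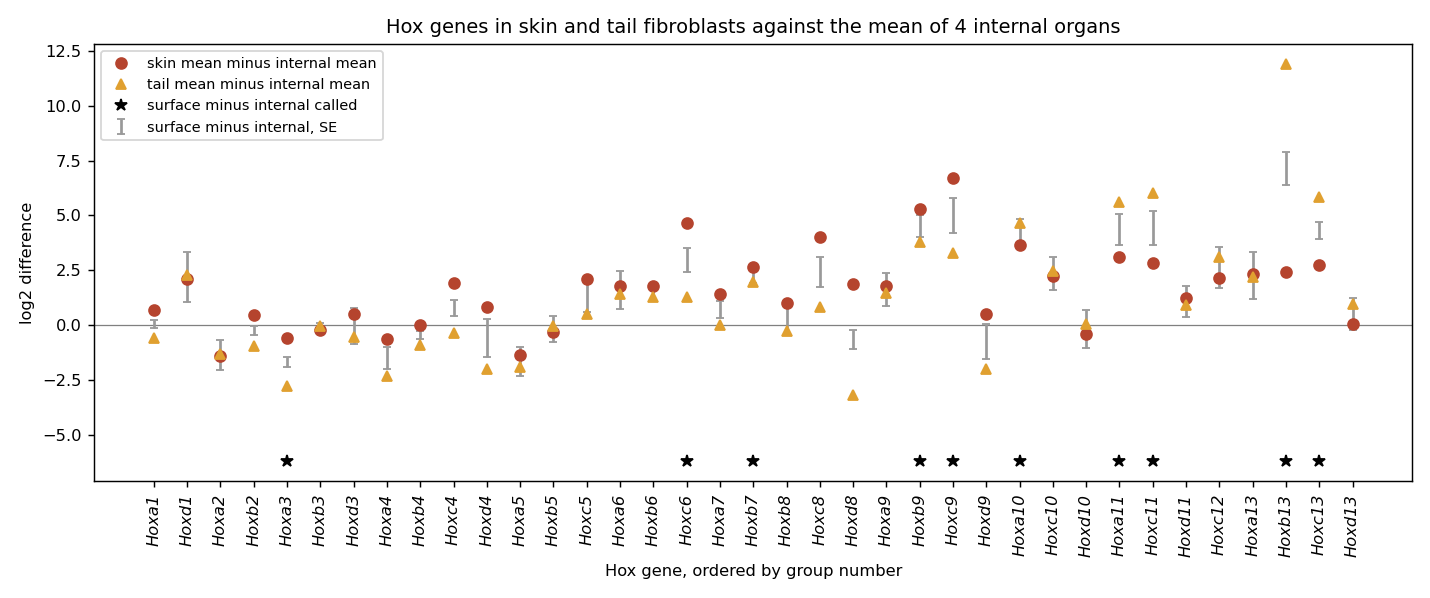
Difference of the skin mean (circles) and tail mean (triangles) from the mean of the 4 internal organs (y axis, log2) for the 37 Hox genes in order of group number (x axis), with the SE of the surface difference as grey bars and stars on the 10 called genes. The called higher genes lie in groups 6 to 13, Hoxb13 is far higher in tail than in skin, and the lower call is Hoxa3.

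Genes of the matrix, receptors and secreted factors also had large differences upward. Cilp, which codes for a secreted protein of cartilage intermediate layer, read 0.97 and 0.35 in skin and 5.67, 5.34 and 5.58 in tail and from -7.46 to -3.46 in the 11 internal arrays (median -6.28). All surface arrays lay above all internal ones, tail far above skin. The difference was 8.80 ± 0.59 (limma, adjusted p = 6.8e-06), and only 2 of 11 internal arrays were above background. The fold was 306 with organs dim on all their arrays set at the floor. Other dim arrays kept their own signal, so this is not a strict bound. Skin lay below tail by a difference of -4.87 ± 0.98 (limma, adjusted p = 0.017). Il1rl1, the receptor for interleukin-33, read 4.20 and 4.21 in skin and 4.51, 4.56 and 4.20 in tail, and from -7.10 to 0.97 in the 11 internal arrays (median -4.09). Lung held the highest internal values, 0.97 and -0.55, and heart was not above background. The difference of 7.78 ± 0.32, at least 152-fold, was called in all 8 pairs (limma, adjusted p = 1.3e-07), and skin and tail differed by -0.21 ± 0.53. Lrrc15, a membrane protein of activated stromal cells, read 3.87 and 3.13 in skin and 1.08, 0.40 and 0.76 in tail and from -6.58 to -2.87 in the 11 internal arrays (median -5.08). Its difference was 6.79 ± 0.50, at least 104-fold (limma, adjusted p = 1.5e-05). Crabp1, a retinoic acid binding protein of papillary dermis, differed by 5.03 ± 0.48 (limma, adjusted p = 7.5e-05) with skin 1 the highest array at 3.85. Col5a3, a chain of type V collagen, read 4.76 and 4.74 in skin and 4.09, 4.17 and 4.08 in tail and from -0.16 to 2.23 in the 11 internal arrays (median 0.87), with a difference of 3.36 ± 0.31 (limma, adjusted p = 7.0e-05).

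Genes of cartilage, tendon and joint surfaces were led by tail in some cases and by skin in others. Of 14 markers of cartilage, bone and tendon, 4 were called higher and 0 lower, with a median 0.65 above that of all genes. That median fell to 0.11 under normexp with quantile normalization. Tnmd, tenomodulin of tendon cells, had means of 1.62 ± 0.31 in tail and -1.40 ± 0.02 in skin and differed by 5.43 ± 0.62 (limma, adjusted p = 2.6e-04). Comp, a cartilage and tendon matrix protein, read 7.48, 6.91 and 7.04 in tail against 1.11 and 1.22 in skin, where heart reached 0.31, 1.74 and 1.49. Only tail stood apart in Comp, whose skin and tail difference was -5.97 ± 0.84 (limma, adjusted p = 0.0031). Sp7, an osteoblast factor, was highest in skin at -2.46 ± 0.42, with 0 of 11 internal arrays above background, and Alpl, alkaline phosphatase, was likewise highest in skin at 1.32 ± 0.21. The Alpl call ended with any 1 of 9 arrays left out, namely the 5 surface arrays, gonad 1, gonad 2, liver 3 and lung 3. Prg4, the lubricin of joint surfaces, differed by 5.89 ± 0.68 (limma, adjusted p = 2.6e-04) and Penk, the enkephalin precursor, by 5.86 ± 0.47 (limma, adjusted p = 2.9e-05). Both had all surface arrays above all internal arrays and both were higher in tail, though only for Penk did the skin and tail difference pass (adjusted p = 0.031, limma). The calls of Tnmd, Comp and Prg4 ended when tail was left out.

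Signalling genes were mixed. In the Wnt list 6 of 28 genes were called higher and 3 lower, with a median 0.77 above that of all genes. The list median was 0.18 under normexp with quantile normalization. Dkk2, a Wnt antagonist, had means of 5.01 ± 0.29 in tail and 1.03 ± 0.03 in skin against -2.70 to 0.11 over the internal organs (4.36 ± 0.42, limma adjusted p = 7.5e-05). Sfrp2, which binds Wnts, was high in tail at 6.66 ± 0.03 but lower in skin, at 1.18 ± 0.14, than in gonad, at 3.19 ± 0.37. Rspo2, which strengthens Wnt signals, was 2.20 ± 0.12 in tail and -1.27 ± 0.97 in skin, and its call ended without skin 1. Rspo1, its relative, was called lower (-2.51 ± 0.30, limma adjusted p = 3.1e-04), as were Sfrp4 (-2.85 ± 0.46) and Frzb (-2.22 ± 0.37). In Rspo1, heart at -2.05 ± 0.26 lay with the surface organs while gonad, liver and lung had means of 2.45, 2.43 and 2.24.

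The BMP list had 2 of 24 genes higher and 4 lower, where 2.01% of all genes were called higher and 1.97% lower. Its median was -0.14 relative to all genes. Gdf6, a BMP family ligand of joints, was lower by a difference of -4.64 ± 0.41 (limma, adjusted p = 4.5e-05), with all surface arrays below all internal ones. Bmp4 was called lower (-2.13 ± 0.44, limma adjusted p = 0.014), and here skin at 0.98 ± 0.93 lay below tail at 4.32 ± 0.33, a call that ended without skin 2. In the Hedgehog list 1 of 13 was called higher and 1 lower, single calls that say little about the list beside those shares. Hhip, an inhibitor of Hedgehog ligands, read 0.16 and 0.06 in skin and -0.50, -0.93 and -0.17 in tail and from -7.46 to -2.95 in the 11 internal arrays (median -6.49), with no overlap and a difference of 5.21 ± 0.67 (limma, adjusted p = 6.1e-04). Dhh, a Hedgehog ligand, differed by -2.08 ± 0.45 (limma, adjusted p = 0.018), with gonad highest at 2.29 ± 1.02, and its call ended without skin 1, skin 2 or tail 1.

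Growth factor genes moved in both directions. Of 15 FGF ligands and receptors 3 were called higher and 1 lower. Fgf7, which acts on epithelium, had means of 4.82 ± 0.17 in skin and 4.94 ± 0.17 in tail, just above lung at 4.44 ± 0.18 and well above gonad at 1.24 ± 0.24 (2.52 ± 0.37, limma adjusted p = 0.0015). Fgf1 was lower by a difference of -2.59 ± 0.29 (limma, adjusted p = 2.0e-04). Of 10 insulin-like growth factor genes 2 were called higher and 1 lower. Igf1 itself read 0.66 and 0.63 in skin and 0.67, 0.53 and 0.39 in tail and had a median of 3.19 over the 11 internal arrays. No surface array reached an internal one, skin and tail differed by 0.11 ± 0.54, and the difference was -2.46 ± 0.32 (limma, adjusted p = 6.7e-04).

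Of 23 chemokines and cytokines 7 were called higher in the surface cells and 1 lower. The higher ones were Cxcl1, Cxcl5, Cxcl14, Ccl2, Ccl7, Ccl8 and the cytokine Tslp, and the lower one was the cytokine Il6, the median of the list being 0.24 above that of all genes. The sign of that median turned under normexp with quantile normalization, quantile normalization alone and the value table. Cxcl14, a chemokine made by skin, had means of 6.31 ± 0.33 in skin and 4.67 ± 0.17 in tail, but gonad reached 6.26 ± 0.61, above tail, so the difference of 3.73 ± 0.42 (limma, adjusted p = 2.4e-04) lay in heart, liver and lung, with means of 0.17, -0.32 and 0.94. Ccl7 and Ccl8, which attract monocytes, had all 5 surface arrays above all internal ones, with differences of 3.17 ± 0.39 and 3.52 ± 0.60 (limma, adjusted p = 4.4e-04 and 0.004). Cxcl5 differed by 5.70 ± 0.96 (limma, adjusted p = 0.0038), though heart at 4.66 ± 1.56 lay above tail at 3.50 ± 0.37. Ppbp, a chemokine best known from platelets, was not above background on any of the 11 internal arrays and read -3.25 and -2.58 in skin and -0.20, -0.35 and -0.14 in tail, at least 10.5-fold higher (limma, adjusted p = 1.3e-07). Il6 was the 1 called lower, at -1.73 ± 0.41 (limma, adjusted p = 0.029). Its skin mean of 3.99 ± 0.28 was as high as the highest internal mean, 3.95 ± 0.56 in liver, while tail was at -1.16 ± 0.45, and without tail the difference was 0.84. The Il6 call also ended with any 1 of gonad 1, gonad 2, liver 1, liver 2, lung 1 or the 5 surface arrays left out.

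Collagens and complement genes moved both ways. Among 28 collagens 4 were called higher and 6 lower. The 6 lower ones included 4 chains of type IV collagen, the network collagen of basement membranes, Col4a1, Col4a2, Col4a5 and Col4a6, at -1.78, -1.65, -1.73 and -4.53. Col4a6 was the only 1 of these called in all 8 pairs, reading -2.98 and -2.91 in skin and -1.84, -1.03 and -1.17 in tail and from 0.49 to 3.79 in the 11 internal arrays (median 2.52) (limma, adjusted p = 1.4e-05). The calls of Col4a1, Col4a2 and Col4a5 ended without skin 1 or skin 2. Col7a1, the anchoring fibril of skin, was higher by a difference of 1.63 ± 0.32 (limma, adjusted p = 0.011), all of it from skin at 5.64 ± 0.26, since tail at 2.25 ± 0.18 lay within the internal organs and without skin the difference was -0.07. Its call ended without skin 1 or skin 2. Of 20 complement genes 1 was called higher and 4 lower, against 2.01% and 1.97% of all genes. C3, the central component, differed by -2.45 ± 0.43 (limma, adjusted p = 0.0053), with skin at 4.04 ± 0.32 above gonad at 3.42 ± 0.46 and tail at 0.50 ± 0.26, and the call ended without skin 2.

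Regulators of the viscera were mostly called in the other direction. Of 32 regulators of visceral and splanchnic mesenchyme 8 were called lower and 2 higher in the surface cells, with a median -0.91 relative to all genes. Gata4, a zinc-finger factor of heart, gonad and liver stroma, was not above background on any surface array, at -6.89 and -6.63 in skin and -7.48, -6.49 and -6.58 in tail. It read 3.37, 2.85 and 2.08 in gonad, 0.56, 2.73 and 2.72 in heart, 1.81, 1.22 and 2.54 in liver and -0.28 and -0.83 in lung. Lung was the lowest internal organ and still lay well above every surface array. The difference was -8.32 ± 0.40, at least 75-fold lower in the surface cells (limma, adjusted p = 4.4e-07), and the slides gave -9.09, -7.84 and -8.59. Gata6, its relative, was measurable on all arrays. It read 0.01 and 0.15 in skin and -2.06, -1.49 and -1.43 in tail, against 1.68, 2.13 and 1.71 in gonad, 0.69, 2.51 and 2.19 in heart, 3.43, 2.42 and 3.22 in liver and 3.01 and 2.88 in lung. The 2 sides did not overlap, with heart 1 the nearest internal array, and the difference was -3.19 ± 0.30 (limma, adjusted p = 7.5e-05), called in 6 of 8 pairs. Skin lay above tail in Gata6 by 1.74 ± 0.51, which did not pass the test (adjusted p = 0.099, limma).

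Wt1, a zinc-finger factor of mesothelium and gonad, read -4.71 and -3.49 in skin and -4.71, -6.07 and -6.74 in tail. In the internal organs it read 4.24, 4.07 and 3.08 in gonad, 5.32, 2.93 and 3.06 in liver and 4.14 and 3.25 in lung, but -2.57, -2.32 and -1.63 in heart. Heart thus lay between the surface organs and the other internal organs, and the internal organs differed from each other in the F test (limma, adjusted p = 5.9e-04). The surface difference was -7.24 ± 0.47 (limma, adjusted p = 5.9e-06), called in 7 of 8 pairs. On tail 2 and tail 3 Wt1 lay below the lowest signal well above background on those arrays, so the size of this difference is uncertain. Tcf21, a factor of epicardial and visceral stroma, had the reverse order among internal organs, with heart highest at 3.78 ± 1.20 and liver lowest at -0.22 ± 0.58, and differed by -4.22 ± 0.44 (limma, adjusted p = 1.5e-04). Bnc1, Nr2f1, Tbx2 and Hand2 completed the 8, at -2.98, -1.86, -1.73 and -1.71. The 2 higher ones were Meox2 (3.73 ± 0.71), led by tail at 3.87 ± 0.14, and Tbx3 (1.22 ± 0.24), led by skin at 2.83 ± 0.21. The calls of Meox2, Tbx3, Bnc1 and Nr2f1 ended without skin 2, and those of Meox2, Bnc1, Nr2f1 and Hand2 without skin 1.

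Genes of retinoic acid handling split by role. Of 18, 3 were called higher and 3 lower. The Rbp4 call ended without skin 2. Those lower included the synthesis enzymes Aldh1a1 and Aldh1a2, and those higher were the binding protein Crabp1, the retinol carrier Rbp4 and Rarres2. Aldh1a1 read 1.00 and 0.79 in skin and 0.71, 0.92 and 1.01 in tail and from 3.84 to 7.75 in the 11 internal arrays (median 5.63), with no overlap and a difference of -4.59 ± 0.44 (limma, adjusted p = 7.6e-05). Aldh1a2 had a skin mean of 2.00 ± 0.20 and a tail mean of -0.82 ± 0.45 against 3.44 to 5.53 over the internal organs (-3.89 ± 0.38, limma adjusted p = 8.3e-05). Skin and tail differed in it by 2.82 ± 0.63 (limma, adjusted p = 0.029). Aldh1a3, the third enzyme, was not called and differed by 2.22 ± 0.69.

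The other large differences downward were in less familiar genes. Clca3a1 and Clca3a2, neighbours on chromosome 3 of the chloride channel accessory family, are near-identical copies that array probes may not tell apart, so their 2 values are uncertain as separate measurements. They differed by -6.74 ± 0.53 and -6.64 ± 0.54 (limma, adjusted p = 2.4e-05 and 3.1e-05). Clca3a1 read -1.92 and -2.67 in skin and -2.54, -2.67 and -3.13 in tail and from 1.28 to 5.68 in the 11 internal arrays (median 4.26). Liver 1 was the lowest internal array for both, still above all surface arrays. Serpinb6b, a protease inhibitor, differed by -6.12 ± 0.39 (limma, adjusted p = 5.9e-06), with skin at -0.10 ± 0.09 between tail at -4.40 ± 0.76 and heart, the lowest internal organ, at 1.75 ± 1.32. Ptprb, a phosphatase of endothelial cells, differed by -4.85 ± 0.37 (limma, adjusted p = 2.0e-05) and Art4, a surface ADP-ribosyltransferase, by -5.96 ± 0.42 (limma, adjusted p = 9.8e-06). In both all surface arrays lay below all internal arrays.

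Markers of other cell types moved with the contrast. Of 13 mesothelial markers measured, 11 were called lower in the surface cells and 0 higher, with a median -4.17 relative to all genes. The summed linear signal of the list, in units of each array's 75th percentile, was 7.30 to 11.2 on the surface arrays. On the internal arrays it was 21.3 to 132. Leaving out the high-background arrays, 7 to 10 members were above background on 4 surface arrays, against 9 to 13 on 9 internal arrays. Lrrn4 and Gpm6a, 2 defining members, were not above background on any surface array, with bounds of at least 19.2-fold and 14.8-fold lower (limma, adjusted p = 7.5e-05 and 5.9e-06). Msln, mesothelin, had means of 4.11 ± 0.99 in lung, 1.73 ± 2.28 in liver and 1.61 ± 1.74 in gonad, but -2.49 ± 1.47 in heart, against -3.79 ± 0.99 in skin and -2.76 ± 0.57 in tail. Wt1, Bnc1, Rspo1 and Aldh1a2, called lower above, are on this list too. Heart lay below the other internal organs in Wt1, Gpm6a and Rspo1, though in Wt1, as in Aldh1a2, its mean lay above those of both surface organs. The 2 members not called were Krt19 (2.15 ± 0.59) and Calb2 (1.92 ± 1.11). In bulk RNA fewer cells of a type and less RNA per cell cannot be told apart, and the part of mesothelial cells in the visceral differences was not tested.

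**Figure D4:**
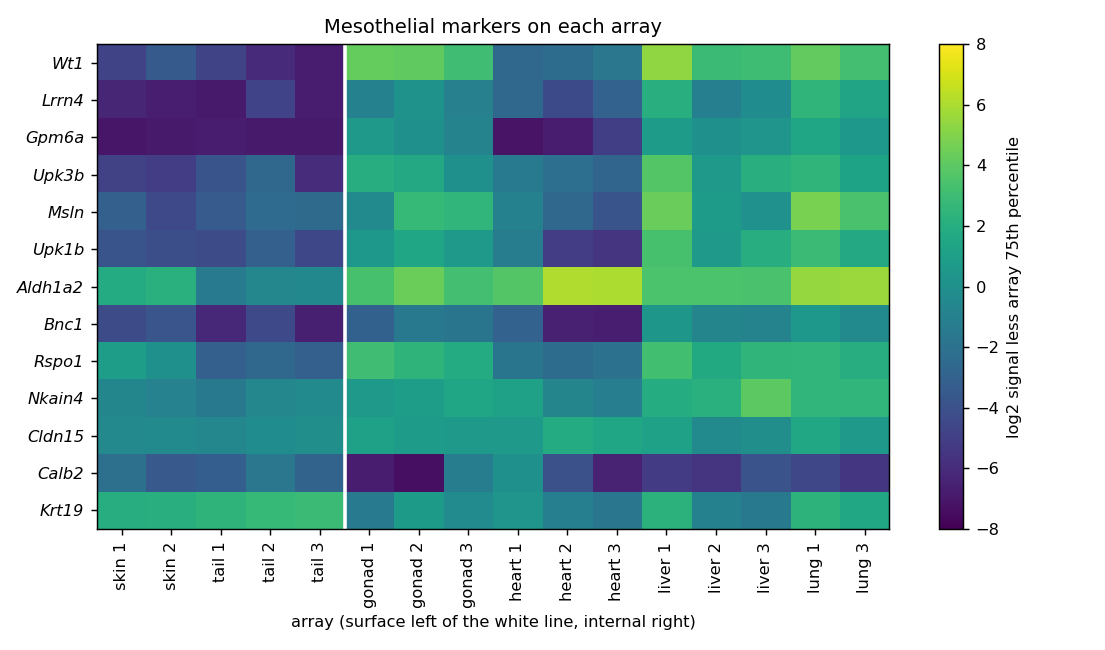
Signal of the 13 mesothelial markers (y axis) on each of the 16 arrays (x axis), as colour on the log2 scale of the text. Gpm6a is dark on all 5 surface arrays and on the 3 heart arrays, while gonad, liver and lung arrays read from -0.83 to 1.49.

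Endothelial markers were called lower in 5 of 16 cases and higher in 0, with a median -1.76 relative to all genes. Those 5 were Robo4, Plvap, Emcn, Cdh5 and Flt1, and their high values lay in gonad and liver. Cdh5, the cadherin of endothelial junctions, had means of 1.71 ± 0.33 in gonad and 1.60 ± 0.96 in liver but -3.99 ± 1.18 in heart, where skin had -2.77 ± 0.78 and tail -4.67 ± 0.34. The calls of Cdh5 and Emcn ended without skin 2. The summed signal of the list was 16.4 to 33.3 on surface and 16.8 to 338 on internal arrays. Pecam1 and Kdr, 2 further endothelial genes, differed by -0.84 ± 0.50 and 0.15 ± 0.33, neither called. The part of endothelial cells in the lower genes, Ptprb among them, was not tested.

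Keratinocyte markers were called higher in 3 of 20 cases and lower in 0, and all 3 were led by skin. Their median was 0.87 above that of all genes, and 0.29 above it under normexp with quantile normalization. Krt14, a keratin of the basal epidermis, read 2.30 and 2.86 in skin and -3.56, -2.55 and -3.91 in tail and from -4.87 to -1.64 in the 11 internal arrays (median -3.86). Both skin arrays stood far above all others, and the tail arrays lay within the internal range. Krt17 read 3.60 and 4.34 in skin and -7.14, -3.87 and -4.64 in tail, and without skin its difference was -0.13, while Col17a1 had -0.82 ± 0.11 in skin and -4.18 ± 0.66 in tail. The calls of Krt14 and Krt17 ended without skin 2, and those of Krt17 and Col17a1 without skin 1. The summed signal of the list was 10.7 to 49.8 on surface arrays and 9.98 to 24.5 on internal arrays. Krt5, the partner of Krt14, differed by 2.86 ± 0.99, and Trp63, a master factor of epidermis, by -0.14 ± 0.26, and neither was called. Adipocyte markers were higher in 2 of 10 cases. Car3, abundant in fat and muscle, read 4.43, 5.52 and 4.02 in tail against -3.88 and -4.66 in skin. Of 14 skeletal muscle markers 1 was higher, Myog, at -3.33 and -2.82 in skin and not above background in tail. Over all genes 2.01% were called higher. The part of these cell types in the surface differences was not tested.

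**Figure D5:**
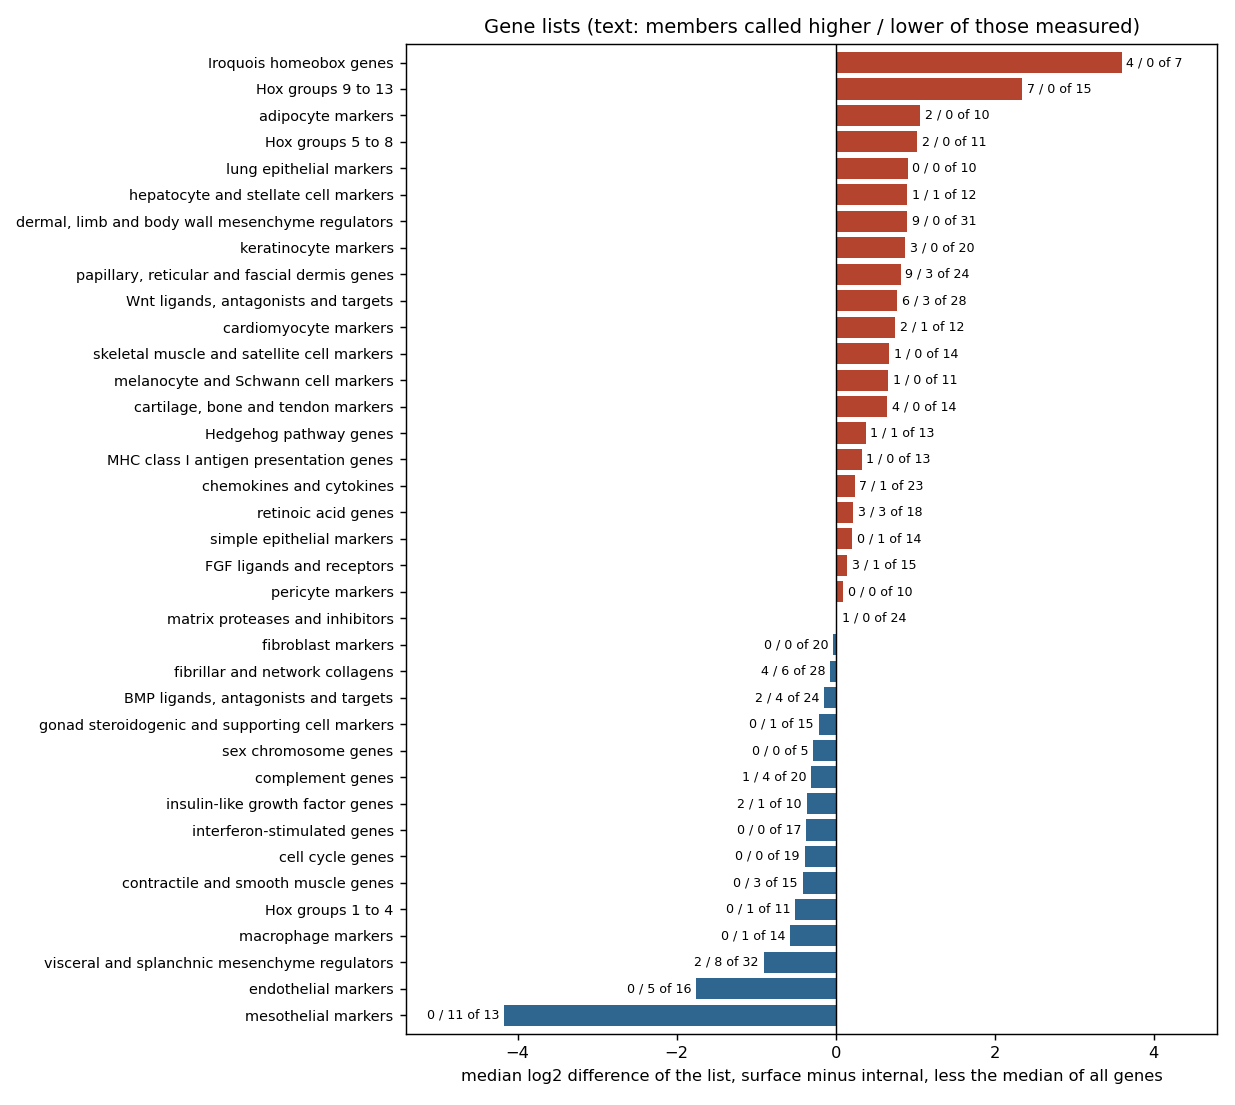
Median log2 difference of each of 37 gene lists, surface minus internal, less the median of all genes (x axis), with the number of members called higher and lower of those measured printed at each bar. Iroquois and posterior Hox genes lie furthest to the right and mesothelial and endothelial markers furthest to the left.

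The surface side was not uniform. Skin and tail differed from each other in 635 genes (3.22% of those tested), and 171 of the 785 surface calls were among them. The internal organs differed among themselves in 972 genes by the F test (4.93%), and 279 of the 785 calls were among these. Of the 785, 219 had all 5 surface arrays beyond all 11 internal arrays, which was so for 1.40% of all genes tested (0.902% above and 0.502% below), and 110 passed in at least 6 of the 8 organ pairs. In 31 genes no single pair passed. By organ means alone, both surface organs lay above all 4 internal organs in 24.0% of all genes and below them in 2.71%, the same lean upward as in the median of all genes. Of the 110 called genes that are named by rule here, 61 lost the call when tail was left out and 2 more reversed, and 15 lost it when skin was left out and 2 more reversed. Leaving out skin 2 ended 26 of the 110 calls and leaving out skin 1 ended 22, the number for any other single array being at most 9. A core of 30 of the 110 kept the call in each of the 43 alternatives that tested them.

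Both marker genes with measurable levels on all arrays had close companions. Over the 16 arrays, the 5 genes most correlated with Tbx15 were Irx2 (r = 0.945), Cacna1g (0.939), Hhip (0.933), Gdap1l1 (0.919) and Irx1 (0.917). Those most correlated with Gata6 were Mogat2 (r = 0.977), Ptgis (0.971), Gprc5b (0.962), Chn2 (0.960) and Rasl11b (0.955). The arrays of an organ share their source and the 2 sides differ in all these genes, so these values only describe the pattern. Irx1, Tbx15, Wt1 and Gata6 were named with the contrast when earlier results of these data were known, and their direction is no independent evidence.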

How the data were processed

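Cultured fibroblasts were profiled on 1-colour mouse arrays, and groups are the organs named in the labels. Per the file headers, the authors scanned the arrays with Agilent Feature Extraction 11.0.1.1, and the deposited intensity is the spot signal after background subtraction and spatial detrending, on the scanner's own scale, with no normalization across arrays. The deposited raw and background intensities are pixel medians. Deposited flags of another unit (0 or 1) mark spots well above background, outliers and saturation. The deposited value table was checked to equal the raw median intensity on 18 arrays, and it alone holds lung replicate 2.

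A symbol was given for 27235 of the 55681 biological probes, which named 20660 genes. Outlier spots were set to missing, signals were divided by the array's 75th percentile and log2 transformed, and each gene was read from its brightest probe complete on all arrays, provided that probe was well above background on at least 2. Limma 3.58.1 (R 4.3.3; lmFit, eBayes) fitted 6 organ means on 16 arrays with 10 residual degrees of freedom, with Benjamini-Hochberg adjustment over all genes of a contrast. Kidney was not in the fit. The number of arrays, and how many spots each lit, limit the precision.

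Sums of a list's signal are sums of linear values over its members. A fold bound sets the brighter side's mean against, per array of the dim organ, the higher of the probe's own signal and the lowest signal well above background on that array. Slides and replicate numbers were tested as blocks. Correlations of deviations from the organ means lay between -0.85 and 0.78 for samples of other organs with the same replicate number (median -0.04), against -0.84 to 0.91 (median 0.04) with other numbers, so the numbers were not taken to pair samples.

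Named genes are the 10 largest called in each direction with all surface arrays beyond all internal arrays, the 5 largest in each direction of those in all 8 organ pairs, the 3 largest called members of each list in each direction, Irx1, Tbx15, Wt1, Gata6, the Hox genes and 5 sex chromosome genes, without predicted names. Other list members and uncalled genes, and the other genes of all 8 pairs, were named after their values were seen, and some genes of the rule are not described. The contrast, the markers and the 37 lists were chosen with earlier results of these data known. In a test on simulated data, 200 of 19726 genes were shifted. The contrast recovered 44% of genes shifted by 1.5, 56% by 2, 74% by 3 and 88% by 4 log2, with 2 false calls. The simulated noise was independent for each gene, with no array-wide background and no other difference between organs. These rates therefore do not cover errors from the high-background arrays. Alternatives were normexp (offset 50, on pixel medians, as mean spot signal was not used here) with quantile normalization, quantile normalization, scaling to the median or 75th percentile of detected probes, a stricter and no filter on dim probes, averaging of all probes of a gene, array weights, blocks, robust eBayes with a trend, the value table, the high-background arrays left out or as a term, kidney added, other thresholds, pooled arrays and leaving out each organ and array. Python 3.11.15 with pandas 2.3.3, numpy 2.4.6 and matplotlib 3.10.9 made tables and figures.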

Additional observations from a re-analysis of the deposited data

Results flagged for a closer look

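In 27 of the named genes called between surface and internal organs, skin and tail also differed from each other in the limma test, so the surface difference was unequal in its 2 organs. Values are skin minus tail in log2.

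Lower in skin than in tail were 2 posterior Hox genes and a somite factor, with -9.50 for Hoxb13, -3.10 for Hoxc13 and -5.43 for Zic1. The same held for 4 genes of cartilage, fat and neuropeptides, with -8.93 for Car3, -5.97 for Comp, -4.87 for Cilp and -3.49 for Penk. It held for 5 secreted signalling genes, with -5.73 for Igfbp4, -5.49 for Sfrp2, -3.97 for Dkk2, -3.34 for Bmp4 and -2.69 for Ppbp. Hoxb13 and Car3 had the largest of these differences.

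Higher in skin than in tail were 3 epidermal genes, with 9.19 for Krt17, 5.92 for Krt14 and 3.40 for Col7a1. So were 5 immune and secreted genes, with 6.43 for Plac8, 5.16 for Il6, 3.54 for C3, 1.96 for Rarres2 and 4.04 for Mmp9, and 3 regulators of muscle and mesenchyme, with 3.46 for Myog, 2.34 for Tbx3 and 2.19 for Hoxa3. Another 4 genes called lower on the surface side were also higher in skin than in tail, with 4.47 for Sfrp4, 4.30 for Serpinb6b, 3.37 for Rspo1 and 2.82 for Aldh1a2. For Il6 and Igfbp4 the direction of the surface difference turned when tail was left out, and for Krt17 and Col7a1 when skin was.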

How the results depend on the processing

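Under all 43 alternatives, 2 of them chosen after seeing the data, no gene called in the main setting was called in the opposite direction. Of the 110 called genes named by rule, 4 changed sign in 1 alternative each. Without skin, Col7a1 was at -0.0719 and Krt17 at -0.131, and without tail, Igfbp4 was at -0.53 and Il6 at 0.84.

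Counts moved, and so did the genes behind them. Of the 785 surface calls, 186 were kept in the same direction without tail, 392 without skin 2, 447 without skin 1 and 595 under quantile normalization. Without the 3 high-background arrays 772 were kept. Of the 24 genes of all 8 pairs, 13 were kept under quantile normalization and 15 under normexp with quantile normalization. The 785 surface calls became 6474 with array weights, a fit that stopped short of full convergence, 5798 without the 3 high-background arrays, 4280 with these as a term, 1468 with the share of spots above background as a term, 1272 on 13 arrays with normexp and quantile normalization, 1297 without heart, 212 without tail, 413 at a log2 difference of at least 2, 472 at an adjusted p under 0.01 and 353 with arrays pooled by side. Leaving out 1 array gave 395 to 1568. The 24 genes of all 8 pairs became 1741 with weights, 829 without the 3 arrays, 58 with the term, 68 with the share, 184 on 13 arrays, 64 with normexp and quantile normalization, 55 with quantile normalization, 46 and 75 when scaled to the median and 75th percentile of detected probes, 67 with the value table, 14 with kidney as an internal organ, 178 without skin, 149 without heart, 38 without lung and 8 at the stricter p. Leaving out 1 array gave 2 to 79.

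The 635 skin and tail genes became 2807, 2421, 1429, 1864 and 2173 under the first 5 of these in that order (weights, left out, term, share, 13 arrays). They were 1309 with normexp, 1235 with quantile normalization, 1270 and 1761 with the 2 scalings, 1293 with the value table, 1919 without heart and 227 at the stricter p, and 46 to 2088 without 1 array. The 972 genes of the F test became 5818, 3362, 1614, 2272 and 3622 in the same order, 1882 with normexp, 1499 with quantile normalization, 1881 with the 75th percentile, 2057 with the value table, 8757 with kidney, 570, 620 and 616 without tail, gonad and heart, 480 at the stricter p and 671 to 2207 without 1 array. The replicate block, where numbers do not pair the samples, gave 660 surface calls, 12 in all 8 pairs, 376 for skin and tail and 707 in the F test. The slide block gave 705 surface calls. The cause of these moves was not tested, apart from the smaller number of samples or stricter thresholds that an alternative itself sets. Genes at the floor are limited by signal over background. Their folds are bounds only for organs with no array well above background.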

Other observations

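Markers of papillary, reticular and fascial dermis had 9 of 24 higher in the surface cells (Crabp1, Sfrp2, Prdm1, Ly6a, Wif1, Dlk1, Gpx3, Mfap5 and Ntn1) and 3 lower (Plac8, Sfrp4 and Itga8). Over all genes tested, 2.01% were called higher and 1.97% lower, so a single call in a short list says little about that list. Matrix proteases and their inhibitors had 1 of 24 higher, the gelatinase Mmp9, at 4.39 ± 0.47 (difference ± SE), and MHC class I genes had 1 of 13 higher, Psmb8. No member passed the surface test among 17 interferon-stimulated genes and 19 cell cycle genes, whose medians were -0.37 and -0.39 relative to the median of all genes. Of the interferon list, 13 of 17 genes differed among the internal organs in limma's F test. Its summed linear signal, in units of each array's 75th percentile, spread from 16.6 to 716 over the internal arrays and from 13.8 to 162 over the surface arrays, so the sides overlapped. Contractile genes were called lower in the surface cells in 3 of 15 cases, Des, Myh11 and Mylk, while Acta2, the actin of activated fibroblasts, differed by 0.07 ± 0.32. Of the markers of single organs, cardiomyocyte genes had 2 of 12 higher in the surface cells and 1 lower, hepatocyte and stellate cell genes 1 and 1 of 12, lung epithelial genes 0 of 10 and gonad steroidogenic genes 1 of 15 lower. Macrophage markers had 1 of 14 lower, C1qc, and pericyte markers 0 of 10. Simple epithelial markers had 1 of 14 lower, Krt18, and melanocyte and Schwann cell markers 1 of 11 higher, Mitf.

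Ddx3y and Eif2s3y, both on the Y chromosome, were above background on all 16 arrays, and 0 of the 5 sex chromosome genes were called. Their differences were 0.04 ± 0.36 and 0.00 ± 0.32.

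The arrays outside the contrast gave these values. Kidney, whose 2 arrays both have a raised background, read -0.81 and -1.01 for Irx1, above every internal array (highest -1.06) and below every surface array (lowest 2.09). It read -0.34 and -1.24 for Tbx15, the first above and the second within the internal range, which ended at -0.86. It read 0.40 and 1.32 for Wt1, within the internal range. For Gata4 it read -3.46 and -4.29, below every internal array and above every surface array. For Gata6 it read -0.05 and 0.41, both below every internal array and the first within the surface range. In the value table, quantile normalized in log2, lung replicate 2 read 8.39 for Irx1, against 8.18 and 8.55 on the other lung arrays. It read 13.7 for Wt1, against 13.3 and 12.4, and 9.13 for Gata4, against 9.06 and 8.63.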
